A study of Mus musculus with 6 samples.

Results

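Genes of common gamma chain cytokine signalling were examined at the RNA level in mouse Th17 cells labelled WT or knockout for pyruvate dehydrogenase (PDH). PDH is the mitochondrial enzyme complex that makes acetyl-CoA from pyruvate. The 10 genes described were listed by name: 6 receptor chains (Il2ra, Il2rb, Il2rg, Il4ra, Il7r and Il21r), the kinase Jak3, the transcription factors Stat5a and Stat5b, and Cish, a target and inhibitor of the pathway. All 10 were found among the 15452 genes of the count table, each under a single gene ID, and all 10 passed the filter on low counts that left 15361 genes for testing. Naive CD4+ T cells from spleen and lymph node had been cultured for 3 days on plate-bound anti-CD3 (5 µg/mL) with anti-CD28 (1 µg/mL), IL-6 (30 ng/mL), TGFβ (2 ng/mL) and a blocking antibody to interferon γ (5 µg/mL). No cytokine of the gamma chain family is named in that mix.

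The WT group, 3 libraries, was made from PDH fl/fl mice that lack Cre. The PDH knockout group, also 3 libraries, was made from PDH fl/fl mice that also carry CD4 Cre, which acts in T cells from the thymus onward. Every knockout library carried Cre and no WT library did, so Cre and the deletion cannot be told apart. The labels give neither age nor strain, and do not say whether replicates were separate animals, so the p-values rest on the spread among these libraries, which may be technical. Sample titles spell the floxed locus PHD where the genotype labels have PDH, and the floxed gene is not named. The E1 alpha subunit gene Pdha1 had a mean level of 248 ± 10.2 in the WT libraries and 193 ± 6.33 in the knockout libraries (CPM, SD, n = 3 each), and counts over a whole gene do not show whether an exon was lost.

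Levels are counts scaled to library size with TMM factors (CPM), given as mean ± SD (n = 3 per group) where not listed by library. Changes are on the log2 scale, knockout relative to WT, with the SE. The test was edgeR's quasi-likelihood F test, adjusted by Benjamini-Hochberg over all tested genes. A gene is called when that adjusted p is under 0.05. Library totals ran from 33802154 to 40407124 counts, so counting error is small for every member. The spread between libraries, a biological coefficient of variation of 13.8%, limits the comparison. Across all tested genes 47.6% were called, 23.1% higher and 24.5% lower in knockout. Higher genes made up 48.53% of those called, a share that became 59.95% with upper-quartile factors. One library stood apart: knockout replicate 2 had 4.948% of its counts on a single unnamed entry, against 0.080 to 0.215% in the other libraries. Leaving out the 27 entries raised in that library changed no member's call. The T cell genes Cd3e, Cd3d, Cd3g, Cd4 and Trac were present in all libraries, as were the Th17 genes Il17a, Il17f, Il23r and Ccr6. Single genes differed: 4 of the 5 T cell genes fell while Cd3e was not called (-0.04, edgeR, adjusted p = 0.568), and 3 of the 4 Th17 genes fell while Ccr6, a homing receptor, rose from 39.9 to 70.9 CPM (0.83, adjusted p = 0.000132). In bulk RNA, fewer cells of a type and less RNA per cell cannot be told apart.

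The common gamma chain, encoded by Il2rg, is a shared subunit of the receptors for IL-2, IL-4, IL-7, IL-9, IL-15 and IL-21. Each receptor adds other chains: Il2ra and Il2rb for IL-2, Il4ra for IL-4, Il7r for IL-7 and Il21r for IL-21. The gamma chain binds the kinase JAK3 while the partner chain binds JAK1, and ligand binding lets the kinases phosphorylate STAT factors. IL-2, IL-7 and IL-15 act mainly through STAT5, IL-4 through STAT6 and IL-21 through STAT3. In T helper cells IL-2 and STAT5 support growth and regulatory T cells and restrain Th17 differentiation, where STAT5 competes with STAT3 at the Il17 locus. STAT5 also switches on Cish, whose protein CIS binds activated receptors and dampens the signal.

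STAT5 binds the palindromic letters TTCNNNGAA, which read the same on both strands. Promoter windows from RefSeq (GRCm38.p6), 250 bases before and 50 bases after a start site, were matched by symbol for 9 of the 10 genes, 11 windows in all. Il2rb had none. The windows of 2 members held TTCNNNGAA, those of Cish and Il7r. Among all 32851 windows in the table, 8.3% held it at least once and 0.457% at least 2 times. The windows of the 2 members with a match are shown with the match in capitals, together with the second of the 2 annotated Stat5a starts, since Stat5a changed most and neither of its windows had a match. All 3 are written 5′ to 3′ on the gene's own strand. The Cish window (chr9:107296409-107296708, plus strand) has 2 matches that begin at bases 251 and 262, at and just past the annotated start. The Il7r window (chr15:9529827-9530126, minus strand) has 1 match, at base 109. The end of this window was found in no Il7r transcript of GENCODE M21, so its start site is uncertain. The ends of the other windows shown were found in a transcript of their gene. The Stat5a window is chr11:100860234-100860533, plus strand. These matches describe letters and are not evidence of binding.
Cish: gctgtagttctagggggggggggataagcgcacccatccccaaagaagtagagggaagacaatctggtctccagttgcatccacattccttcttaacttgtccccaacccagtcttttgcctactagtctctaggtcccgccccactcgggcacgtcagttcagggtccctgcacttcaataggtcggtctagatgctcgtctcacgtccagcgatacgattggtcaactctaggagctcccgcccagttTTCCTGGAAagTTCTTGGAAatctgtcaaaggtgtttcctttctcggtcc
Il7r: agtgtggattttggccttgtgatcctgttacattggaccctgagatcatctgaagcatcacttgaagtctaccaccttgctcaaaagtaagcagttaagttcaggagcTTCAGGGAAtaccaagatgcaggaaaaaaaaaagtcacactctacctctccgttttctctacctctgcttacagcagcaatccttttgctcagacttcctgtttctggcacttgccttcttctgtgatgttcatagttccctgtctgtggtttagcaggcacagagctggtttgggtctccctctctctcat
Stat5a: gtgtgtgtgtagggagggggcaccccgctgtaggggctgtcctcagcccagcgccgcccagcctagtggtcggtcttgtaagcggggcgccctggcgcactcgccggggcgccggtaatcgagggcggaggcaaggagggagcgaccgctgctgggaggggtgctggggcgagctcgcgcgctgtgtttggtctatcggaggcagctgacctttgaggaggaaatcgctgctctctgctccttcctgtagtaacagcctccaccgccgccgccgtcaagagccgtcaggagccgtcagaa

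Of the 10 genes, 4 rose in knockout (Stat5a, Jak3, Cish and Il21r), 2 fell (Il2rg and Il4ra) and 4 were not called (Il2ra, Il2rb, Il7r and Stat5b). The share called, 6 of 10, stands beside 47.6% of all tested genes, so the family was not marked out by how many of its genes changed. The median log2 fold change of the 10 was -0.07, against 0.01 over all tested genes. Apart from Stat5a, which rose 1.77-fold, the changes were modest, from -23.2% for Il4ra to 26.4% for Jak3. Tested against a fold change of 1.2 in place of 0, only Stat5a passed among the 10 (Il4ra, adjusted p = 0.0534). The groups did not overlap in 7 of the 10 (58.2% of all tested genes), 4 of them higher in knockout (28.8% of all tested genes) and 3 lower (29.4%).

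**Figure D1:**
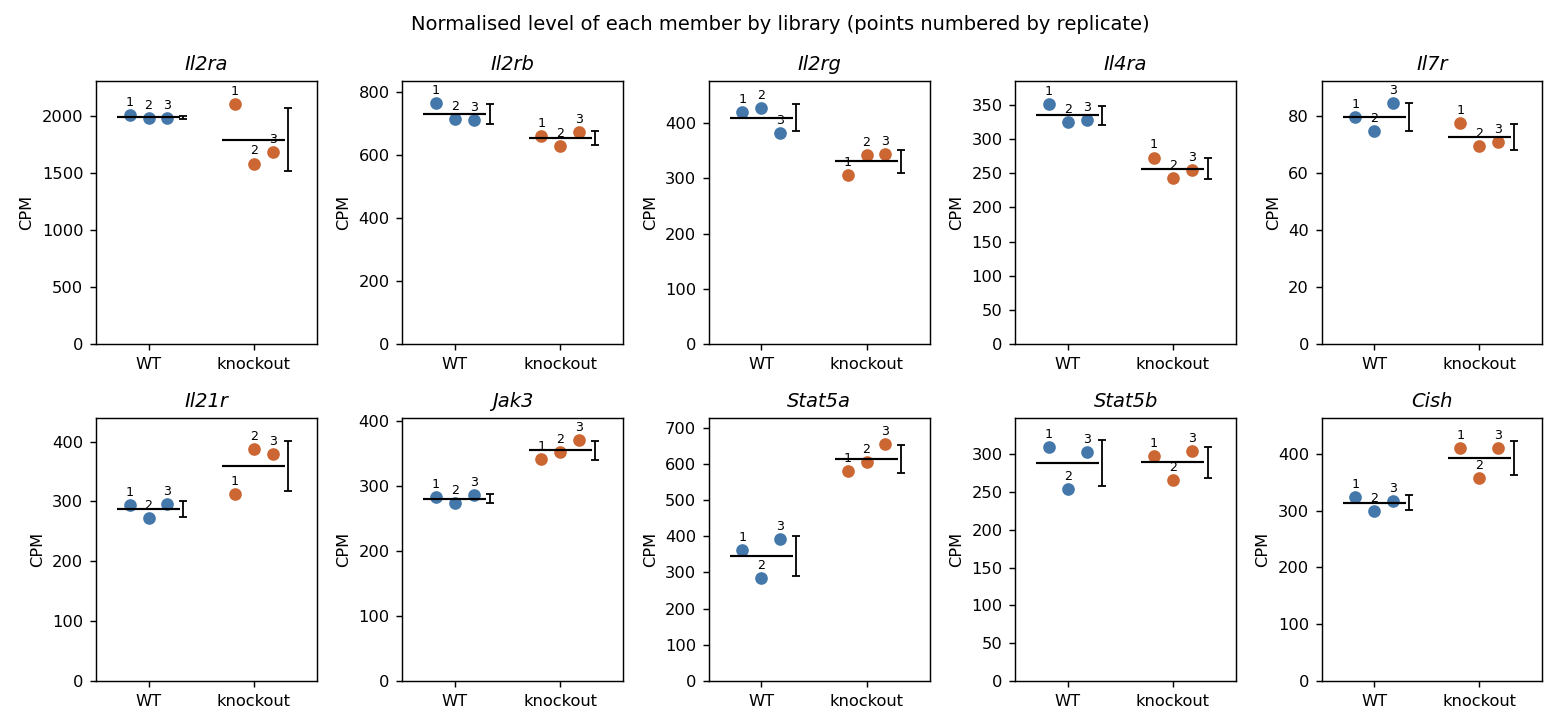
Level of each of the 10 genes in CPM (vertical axes, from 0) in the WT and knockout groups; points are single libraries numbered by replicate, horizontal lines are means and bars the SD (n = 3). Stat5a is the gene whose groups lie farthest apart, and the Stat5b groups share their range.

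The shared chain itself was lower in knockout cells. Il2rg (ENSMUSG00000031304.19) was at 420, 428 and 382 CPM in WT replicates 1 to 3 and at 307, 342 and 345 CPM in knockout replicates 1 to 3. Each knockout library lay below every WT library, and the log2 fold change was -0.31 ± 0.07 (edgeR, adjusted p = 0.00585), which is -19.3%. In the GENCODE M21 transcript set, 42.68% of the 31-base words of the Il2rg transcript also occur in Gm20489, a predicted gene that overlaps it on the same strand. Gm20489 was not found under that name among the genes used, and how reads were divided between those 2 annotations upstream is not known. The genes whose log2 level followed Il2rg most closely over the 6 libraries, of 8645 named genes with a mean of at least 10 CPM, were Ier3ip1, Sh2d2a and Plekho1, with Pearson r of 0.999, 0.997 and 0.996. The 6 points share the difference between the groups, so these coefficients are a description.

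The alpha and beta chains of the IL-2 receptor did not pass the test. Il2ra (ENSMUSG00000026770.6) encodes CD25, the alpha chain that gives the receptor its high affinity and is induced by activation and by IL-2 itself. It was at 2008, 1984 and 1984 CPM in WT and at 2108, 1585 and 1690 CPM in knockout. The WT libraries lay almost on each other, while knockout replicate 1 lay above all of them and knockout replicates 2 and 3 below. The log2 fold change was -0.15 ± 0.10, with a 95% interval from -0.38 to 0.07 (edgeR, adjusted p = 0.241). Without knockout replicate 1, Il2ra passed as lower, at -0.29 (edgeR, adjusted p = 0.013, and from 0.013 to 0.894 over all alternatives). Il2rb (ENSMUSG00000068227.10), the signalling beta chain shared with the IL-15 receptor, was at 768, 715 and 714 CPM in WT and 662, 630 and 674 CPM in knockout. Its groups did not overlap, and its change of -0.16 ± 0.06 missed the threshold (edgeR, adjusted p = 0.0611). It passed by DESeq2 (adjusted p = 0.0217) and by limma-voom (adjusted p = 0.0464) at the same size, and over all alternatives the adjusted p ran from 0.0217 to 0.984.

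Il4ra and Il21r, which lie next to each other on chromosome 7 with 24.0 kb between them in GENCODE M21 (GRCm38), moved in opposite directions. Il4ra (ENSMUSG00000030748.10), the chain that binds IL-4 and is also part of the IL-13 receptor, was at 351, 325 and 328 CPM in WT and at 273, 243 and 255 CPM in knockout. All knockout libraries were below all WT libraries, and the change was -0.38 ± 0.07 (edgeR, adjusted p = 0.00122). Il21r (ENSMUSG00000030745.10) encodes the receptor for IL-21, a cytokine that Th17 cells make and respond to through STAT3. It was at 294, 272 and 295 CPM in WT and at 312, 388 and 379 CPM in knockout, a change of 0.32 ± 0.09 (edgeR, adjusted p = 0.0118). The groups did not overlap, but knockout replicate 1 lay 16.5 CPM above the highest WT library and knockout replicates 2 and 3 far above it.

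B cell markers moved with part of this pattern. B cells are known to express Il21r and Il4ra. Whether they contributed to the levels of these genes was not tested. The summed level of the 6 B cell markers Cd79a, Cd79b, Ms4a1, Cd22, Pax5 and Blnk, by library totals, was 3.06, 18.1 and 2.52 CPM in WT replicates 1 to 3 and 2.46, 37.2 and 62.2 CPM in knockout replicates 1 to 3. Raised values were thus seen in 1 WT and 2 knockout libraries, all 6 markers were above 0 in every library, and the groups overlapped (exact two-sided permutation test, p = 0.4, where the smallest p possible is 0.1). With the log2 of this sum as a covariate, chosen after the data were seen, the Il21r change was 0.25 (edgeR, adjusted p = 0.0538). Without WT replicate 2 and knockout replicates 2 and 3, knockout replicate 1 was the lone knockout library, assumed to vary like WT. The Il21r change was then 0.08 and the Il2ra change 0.08. That library had the lowest Il21r of the knockout group and the highest Il2ra of all 6. This setting thus cannot show whether B cells contributed. The changes of Il2rg, Il4ra, Jak3, Stat5a and Cish kept their direction there (-0.39, -0.31, 0.27, 0.63 and 0.35). Over the other alternatives the adjusted p of Il21r ran from 0.00131 (DESeq2) to 0.235 (edgeR against a fold change of 1.2). WT replicate 2, with raised B cell markers, had the lowest Il21r level of all 6 libraries.

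**Figure D2:**
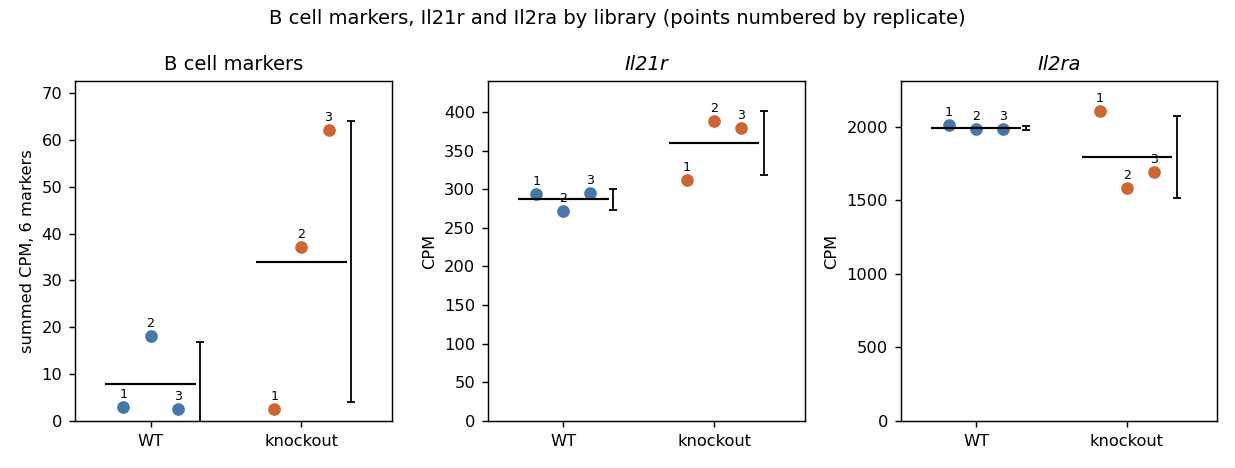
Summed CPM of 6 B cell markers (left), Il21r (middle) and Il2ra (right) in each library, with group means and SD (n = 3); points are numbered by replicate. Knockout replicates 2 and 3, highest in B cell markers, are the highest in Il21r and the lowest in Il2ra, while WT replicate 2 shows neither shift.

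Il7r (ENSMUSG00000003882.6), the IL-7 receptor alpha chain that marks naive and memory T cells and falls on activation, had the lowest count of the 10 genes. It was at 79.7, 74.8 and 84.7 CPM in WT and 77.7, 69.4 and 70.8 CPM in knockout. The groups overlapped, and the change of -0.13 ± 0.07 was not called (95% interval from -0.29 to 0.02, edgeR, adjusted p = 0.139). The interval leaves room for a decrease of the size seen for Il2rb.

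Ratios within a library do not depend on scaling between libraries, and compare each partner chain with the shared chain. The log2 ratio of Il21r to Il2rg counts was -0.52, -0.66 and -0.37 in WT and 0.02, 0.18 and 0.14 in knockout. Every knockout library was above every WT library, by 0.63 on average, a ratio 1.55-fold higher (exact two-sided permutation test, p = 0.1, the smallest that 3 against 3 allows; adjusted over 5 ratios, 0.5). For Il2ra, Il2rb, Il4ra and Il7r the ratio to Il2rg differed between groups by 0.15, 0.15, -0.07 and 0.18 on average, with overlapping groups (exact permutation p from 0.2 to 0.6). With 1 library left out, these differences ran from -0.03 to 0.26 for Il2ra, 0.09 to 0.20 for Il2rb, -0.17 to -0.01 for Il4ra and 0.07 to 0.27 for Il7r. Leaving out knockout replicate 1 gave the lowest value for each.

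**Figure D3:**
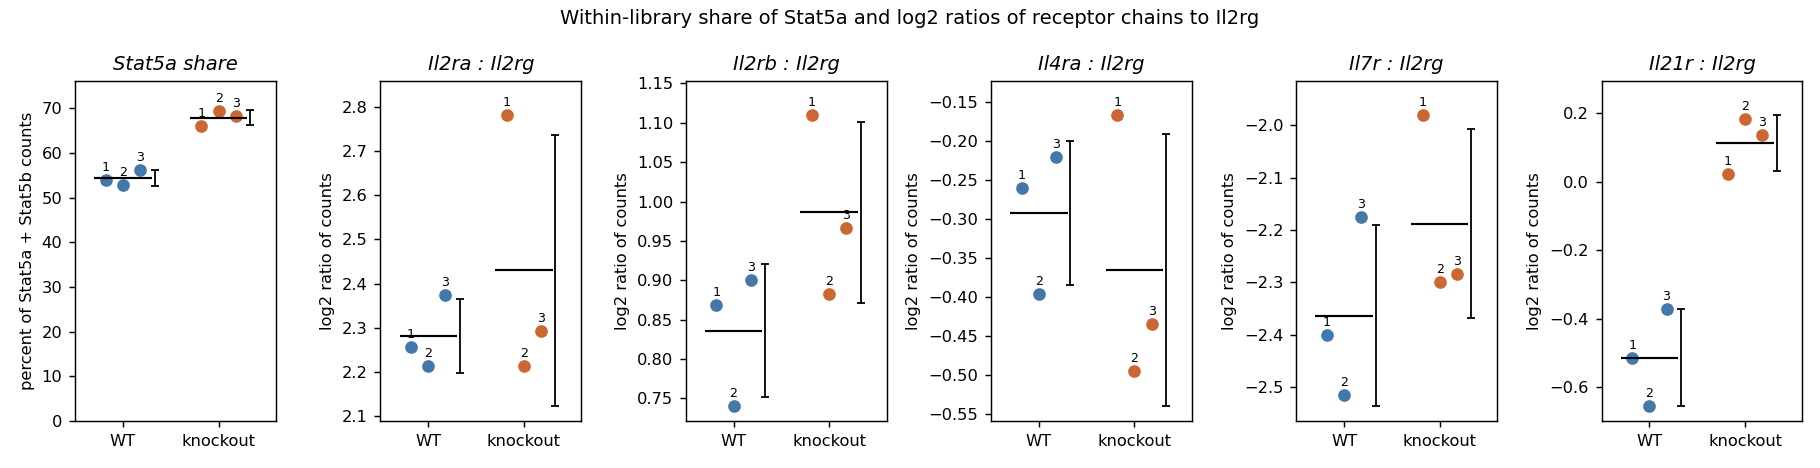
Left panel, Stat5a counts as a percent of Stat5a plus Stat5b counts; other panels, log2 ratio of the counts of each receptor chain to Il2rg, which do not start at 0. Points are libraries numbered by replicate, with mean and SD (n = 3); the groups are apart for the Stat5a share and for Il21r, and overlap for the other 4.

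Jak3 (ENSMUSG00000031805.18), the kinase that works only with the gamma chain, rose while the chain it binds fell. Its level was 283, 274 and 287 CPM in WT and 342, 353 and 371 CPM in knockout. The groups were well apart, at 0.34 ± 0.06 (edgeR, adjusted p = 0.0013). Insl3, a hormone gene that overlaps the 3′ end of Jak3, shares 9.38% of the 31-base words of the Jak3 transcript, and had 211 to 460 counts per library against 10456 to 13812 for Jak3.

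STAT5 is made from a pair of neighbouring genes that encode closely related proteins, 8.6 kb apart on chromosome 11 in GENCODE M21 (GRCm38), and of the pair Stat5a rose while Stat5b was not called. Stat5a (ENSMUSG00000004043.15) was at 362, 284 and 391 CPM in WT and at 581, 604 and 655 CPM in knockout. The lowest knockout library was well above the highest WT library, and the change was 0.83 ± 0.11 (edgeR, adjusted p = 0.000505). Stat5b (ENSMUSG00000020919.12) was at 310, 254 and 304 CPM in WT and 298, 266 and 305 CPM in knockout. The groups overlapped, with a change of 0.00 ± 0.09 and a 95% interval from -0.19 to 0.20 (edgeR, adjusted p = 0.988). WT replicate 2 was the lowest library for both genes.

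The balance within STAT5 shifted accordingly. Stat5a made up 53.9% (exact binomial 95% interval 53.3 to 54.5%), 52.7% (52.1 to 53.4%) and 56.3% (55.7 to 56.9%) of the counts of both genes in WT replicates 1 to 3. In knockout replicates 1 to 3 it made up 66.1% (65.6 to 66.6%), 69.5% (68.9 to 70.0%) and 68.2% (67.7 to 68.7%). The intervals cover counting error only. The groups were apart by 13.6 percentage points (exact two-sided permutation test, p = 0.1, the smallest possible), and by 12.8 to 14.6 points when any 1 library was left out. The transcripts share stretches of sequence: 21.67% of the 31-base words of the Stat5a transcript also occur in another gene, all of them in Stat5b, so the division of reads between the pair is uncertain. Summed as 1 feature, the pair rose by 0.51 ± 0.10 (edgeR, adjusted p = 0.00224).

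Cish (ENSMUSG00000032578.8), the STAT5-induced inhibitor whose promoter window holds 2 of the matches shown above, rose in knockout. Its level was 325, 299 and 317 CPM in WT and 410, 358 and 411 CPM in knockout. The groups did not overlap, with a change of 0.33 ± 0.07 (edgeR, adjusted p = 0.00449).

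**Figure D4:**
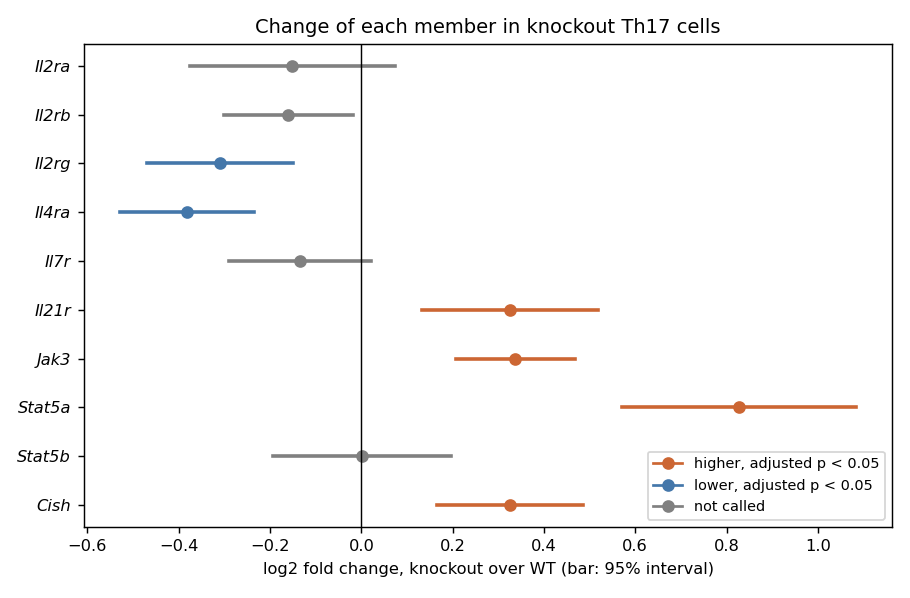
Log2 fold change of knockout over WT (horizontal axis) for each of the 10 genes, with its 95% interval; orange marks genes called higher, blue genes called lower and grey genes not called. Stat5a stands at 0.83, the other called genes lie between -0.38 and 0.34.

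Per kb of the longest CCDS transcript in GENCODE M21, Il2ra was the most abundant of the 10 in WT, at 452 ± 3.17 CPM per kb, followed by Il2rg at 246 ± 14.6 and Il2rb at 175 ± 7.33 CPM per kb. Il21r (115 ± 5.34) and Cish (110 ± 4.61) were next, and Stat5a followed at 88.9 ± 14.3 CPM per kb. Jak3, Il4ra, Stat5b and Il7r were lowest, from 70.0 down to 22.5 CPM per kb, and of all neighbours in this order only Il21r and Cish had overlapping ranges over the WT libraries. In knockout Stat5a reached 158 ± 9.72 CPM per kb, the level of Il2rb there (156 ± 5.36). The order depends on the transcript taken as the gene's length: by merged exons, Cish and Stat5a were the eighth and the ninth.

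Of 3 other receptor chains, 1 fell, 1 rose and 1 was not called, beside 24.5% lower and 23.1% higher over all genes. Il15ra, the IL-15-binding chain, fell from 5.30 ± 0.473 to 2.76 ± 0.300 CPM (-0.94 ± 0.16, edgeR, adjusted p = 0.0011). Il9r, the IL-9-binding chain, was at 0.19, 0.37 and 0.52 CPM in WT and 0.87, 1.37 and 1.73 CPM in knockout (1.86 ± 0.39, edgeR, adjusted p = 0.00342). Without the 3 libraries with raised B cell markers, the Il9r change was 1.27. That setting leaves knockout replicate 1 as the lone knockout library, so no call is read from it. Crlf2, the TSLP receptor chain, named after its values were seen, had 21.1 ± 2.33 CPM (WT) and 18.7 ± 2.68 CPM (knockout) and was not called (-0.17 ± 0.12, edgeR, adjusted p = 0.26), and Il13ra1 was not analysed here.

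Among 4 tested ligand genes 1 rose and 0 fell, beside 23.1% higher and 24.5% lower over all genes. The count that rose moved under 6 of 19 alternatives, to 2 under 5 of them, leaving out WT replicate 2 among these. It also moved without the 3 libraries with raised B cell markers, where knockout replicate 1 was the lone knockout library. Il9, the gene of the mast cell and T cell growth factor IL-9, was at 10.0, 9.51 and 9.41 CPM in WT and at 62.1, 26.6 and 37.7 CPM in knockout, so both it and its receptor gene were higher (2.13 ± 0.34, edgeR, adjusted p = 0.00585). Il2 and Il21 are named because they are the ligands of members, after their values were seen. Il2 was at 77.1, 177 and 62.9 CPM in WT and 117, 226 and 166 CPM in knockout, with overlapping groups (0.68 ± 0.53, edgeR, adjusted p = 0.351). The interval ran from -0.75 to 2.12. With any 1 library left out, Il2 was not called (edgeR, adjusted p from 0.0703 to 0.643). Without the 3 libraries with raised B cell markers, with knockout replicate 1 as the lone knockout library, the Il2 change was 0.74. Il21 was at 291, 449 and 273 CPM in WT and 475, 468 and 485 CPM in knockout (0.50 ± 0.19, edgeR, adjusted p = 0.0811). It was called under 6 of 19 alternatives, among them without WT replicate 2 (0.75, edgeR, adjusted p = 3.89e-05), with adjusted p up to 0.214. Another of the 6 left out the 3 libraries with raised B cell markers. There knockout replicate 1 was the lone knockout library, and Il21 was at 0.76. Its groups did not overlap, with WT replicate 2 close to the knockout level.

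Among 7 other JAK and STAT genes, 1 rose, 3 fell and 3 were not called, beside 23.1% higher and 24.5% lower over all genes. Stat3, the factor downstream of IL-6 and IL-21 that drives Th17 differentiation, fell from 375 ± 36.0 to 287.6 ± 21.04 CPM (-0.38 ± 0.08, edgeR, adjusted p = 0.0046). Stat4, the IL-12-activated factor, fell by 1.65, and Jak2 rose by 0.24. The Jak2 call was lost without WT replicate 1 (0.22, edgeR, adjusted p = 0.0709) or without knockout replicate 2 (0.20, adjusted p = 0.0638). Without the 3 libraries with raised B cell markers, with knockout replicate 1 as the lone knockout library, the Jak2 change was 0.17. The adjusted p of Jak2 ran from 0.00143 to 0.633 over all alternatives. Without WT replicate 3, 2 genes of this list rose. Tyk2, a kinase used by the IL-12 and interferon receptors, fell from 66.1 ± 1.04 to 58.7 ± 2.69 CPM (-0.17 ± 0.06, edgeR, adjusted p = 0.0375). The Tyk2 call was lost under 10 of 19 alternatives, at sizes from -0.23 to -0.09 and adjusted p up to 0.971. Leaving out WT replicate 1 or 3 or knockout replicate 1 or 2 was among these, with changes of -0.17, -0.16, -0.15 and -0.16 (adjusted p = 0.112, 0.0753, 0.106 and 0.104). Stat6, the IL-4-activated factor, and Jak1, the partner kinase of JAK3, both named after their values were seen, were not called, at 0.01 ± 0.06 and -0.08 ± 0.06.

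A list of feedback genes other than Cish held inhibitors of cytokine receptor signalling and phosphatases. Of its 20 tested genes, 10 fell, 1 rose and 9 were not called, beside 24.5% lower and 23.1% higher over all tested genes. The 11 called are near the 47.6% called over all genes. Without WT replicate 2, 2 rose. Their median log2 fold change was -0.24, beside 0.01 over all tested genes. Dusp5, a phosphatase of ERK that IL-2 induces, fell from 58.2 ± 1.66 to 28.2 ± 2.16 CPM (-1.04 ± 0.07, edgeR, adjusted p = 1.68e-05). Socs3, the STAT3-induced inhibitor of IL-6 signalling, fell by 0.92 and Ptpn1, a phosphatase of JAK2 and TYK2, by 0.53. Socs4 was the gene that rose (0.57 ± 0.06). Named after their values were seen as the relatives of Cish that STAT5 also induces, Socs1 fell by 0.48 (edgeR, adjusted p = 0.00888) and Socs2 was at -0.30 ± 0.21 (adjusted p = 0.299). The Socs1 call was lost when tested against a fold change of 1.2 (edgeR, adjusted p = 0.0554). Without the 3 libraries with raised B cell markers, with knockout replicate 1 as the lone knockout library, the Socs1 change was -0.21.

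Of 11 adaptor and PI3K genes, 1 rose, 3 fell and 7 were not called, fewer called than the 47.6% over all genes. Gab2, an adaptor that couples cytokine receptors to PI3K, fell from 5.721 ± 1.501 to 2.14 ± 0.287 CPM (-1.42 ± 0.22, edgeR, adjusted p = 0.000692). Akt2 fell by 0.34 and Grb2 by 0.20, while Pik3r1, a regulatory PI3K subunit, rose by 0.37. The Grb2 call was lost under 6 of 19 alternatives, at sizes from -0.20 to -0.12, among them leaving out WT replicate 1 (-0.19, adjusted p = 0.0741) or knockout replicate 2 (-0.18, adjusted p = 0.0633). Its adjusted p ran from 0.00549 to 0.877 over all alternatives. Without WT replicate 3, 5 genes of this list fell. The count that rose moved without the 3 libraries with raised B cell markers, where knockout replicate 1 was the lone knockout library.

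Genes known to be induced by IL-2 or STAT5 in T cells did not move one way. Of 24 besides the members, 10 fell, 5 rose and 9 were not called, beside 24.5% lower and 23.1% higher over all genes. The median was -0.23. Socs1, which fell, and Socs2, not called, are counted both here and among the feedback genes. Bcl2l1, which encodes the survival protein BCL-xL, rose from 212 ± 4.75 to 370 ± 28.2 CPM (0.80 ± 0.07, edgeR, adjusted p = 3.34e-05), and Myc, a driver of growth, by 0.83. Lif, a cytokine gene, fell from 302 ± 24.1 to 143 ± 6.66 CPM (-1.07 ± 0.07, edgeR, adjusted p = 1.47e-05). Tnfrsf9, which encodes the costimulatory receptor 4-1BB, fell by 1.76. The count that rose moved without the 3 libraries with raised B cell markers, where knockout replicate 1 was the lone knockout library. Most of these genes also respond to the T cell receptor or other signals.

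Of 9 genes known to be lowered by IL-2 or STAT5, 2 rose, 3 fell and 4 were not called, near the 47.6% called over all genes. The 3 that fell were Il17a (-1.31 ± 0.08), Il17f (-1.19 ± 0.19) and Il6ra, the IL-6 receptor chain (-0.26 ± 0.06). Against a fold change of 1.2, Il6ra did not pass (edgeR, adjusted p = 0.492). Its change was -0.18 without the 3 libraries with raised B cell markers, with knockout replicate 1 as the lone knockout library. Bcl6, the repressor that directs follicular helper T cells, rose from 12.8 ± 1.40 to 18.3 ± 2.81 CPM (0.51 ± 0.13, edgeR, adjusted p = 0.00918). Bcl6 did not pass against a fold change of 1.2 (edgeR, adjusted p = 0.0518). Its change was 0.33 without the 3 libraries with raised B cell markers, again with 1 knockout library. In place of 2, 4 genes of this list rose with library totals, upper-quartile factors or at least 50 counts in 3 libraries. Without knockout replicate 2 or 3, 1 rose. Of 10 transcription factors known to regulate Il7r, 3 rose, 2 fell and 5 were not called, also near that share, while Il7r itself was not called. Ets1 fell from 692 ± 24.0 to 413 ± 11.8 CPM (-0.74 ± 0.06, edgeR, adjusted p = 2.75e-05) and Runx3 by 0.61. Foxo3 rose by 0.72 and Foxp1, which opposes FOXO1 at the Il7r gene, by 0.34.

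**Figure D5:**
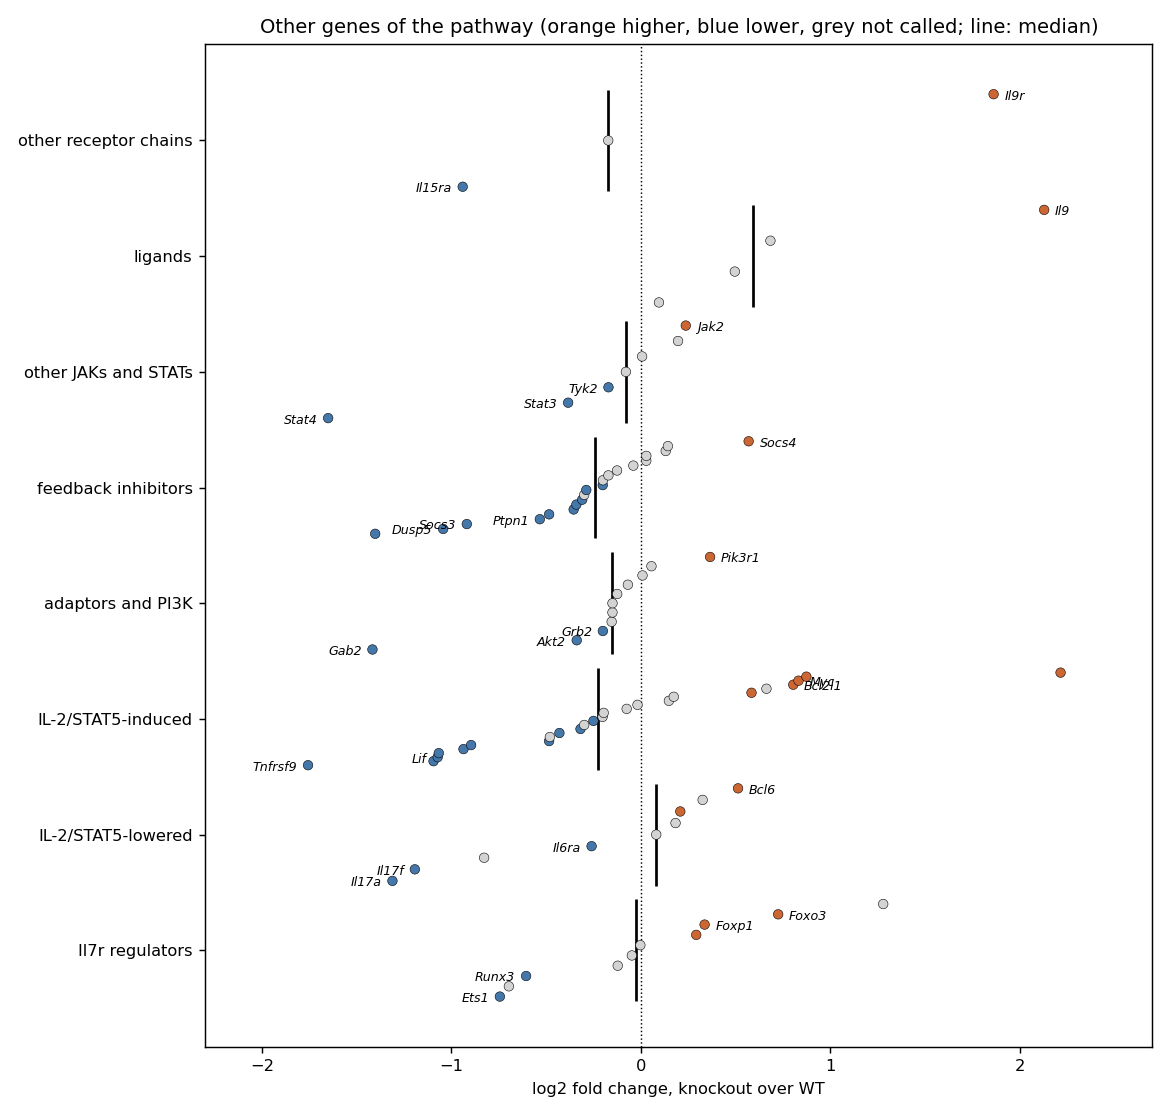
Log2 fold change of knockout over WT (horizontal axis) for each tested gene of 8 lists other than the 10 members; orange points were called higher, blue lower and grey not called, the vertical line is each list's median, and named genes are those given in the text by rule. The feedback list of inhibitors and phosphatases holds 10 lower and 1 higher gene, and the IL-2 and STAT5-induced list spreads to both sides.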

How the data were processed

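The values deposited by the authors are expected counts, estimated reads per gene already in whole numbers. Salmon, DESeq2 and DESeq appear in the submitters' processing notes, with no version and no role stated. Which genome build was used is not given in the sources used here. All 15452 rows hold at least 10 counts in at least 3 libraries. Symbols were matched by unversioned ID to GENCODE M21: 15138 matched and 314 did not. Columns were matched to samples by genotype and replicate number.

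Counts were tested with edgeR 4.0.16 (filterByExpr, TMM, robust quasi-likelihood fit, genotype as the only term) in R 4.3.3. Replicates of a group differed well beyond sampling noise (chi-square over genes, divided by its degrees of freedom, at least 24.05). Intervals are 95%. DESeq2 1.42.0 and limma 3.58.1 served as alternatives. Figures used matplotlib 3.10.9 under Python 3.11.15.

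The members, gene lists and tests were chosen with earlier results of these data known. Some genes of the lists are not reported here and were left out of every list count and marker sum. Named genes are all members, for each list the 4 called genes of smallest p, or fewer where fewer were called (2 if none was), and the 3 genes most like Il2rg. Genes named outside this rule are marked as such. Of the CD8 T cell, NK cell, myeloid, dendritic cell and erythroid markers listed, NK and myeloid sums were lower in every knockout than in every WT library (5.58 to 8.08 against 9.08 to 10.9, and 2.07 to 5.12 against 6.41 to 18.9 CPM; exact permutation p = 0.1 for each, the smallest possible). CD8 and dendritic cell sums overlapped (5.58 to 14.9 against 8.68 to 11.3, and 3.88 to 10.1 against 2.02 to 4.21 CPM), and no erythroid marker was among the genes used.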

Additional observations from a re-analysis of the deposited data

How the results depend on the processing

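Counts of calls and the fold change of each named list gene or member were recomputed under 16 other settings (different scalings, filters and tests, a replicate block, and each library omitted in turn), with STAT5 also summed, and under 3 added after the data were seen: B cell markers as a covariate, the 3 libraries with raised B cell markers left out, and the entries raised in knockout replicate 2 left out. The Stat5a share and the 5 ratios were recomputed only with each library omitted, and Il9r has no value under the filter of 50 counts. Tested against a 1.2-fold change, 3981 genes (2125 higher, 1856 lower) and 1 member (1 higher, 0 lower) passed, and Il2rg (-0.31, adjusted p = 0.251), Il4ra (-0.38, 0.0534), Il21r (0.32, 0.235), Jak3 (0.34, 0.113) and Cish (0.33, 0.192) did not; this test asks for a larger change. Il2rb passed by DESeq2 and limma-voom (-0.16 in both). Il21r was lost with B cell markers as a covariate (0.2531). Without the 3 libraries, knockout replicate 1 was the lone knockout library, so calls in that setting rest on no spread among knockout libraries. Il21r was at 0.0833 there, and Il2ra turned to 0.0807 and Stat5b to -0.0401. Socs2 turned to 0.1822 and Stat6 to -0.0968 there, and Stat6 was at -0.0512 with the covariate. Stat5b was at -0.0012 without the entries raised in knockout replicate 2, and at 0.51 when summed with Stat5a. With 1 library left out, 5524 to 6961 genes were called, 2604 to 3333 higher and 2920 to 3643 lower, and 6 to 7 members, 4 higher and 2 to 3 lower. The changes then ran from -0.286 to -0.0727 for Il2ra and from -0.0836 to 0.057 for Stat5b, from -0.0314 to 0.0576 for Stat6, and the Il2ra to Il2rg ratio from -0.028 to 0.256; the cause was not tested. The replicate block called 7218 genes and changed no member's call. Same-numbered libraries did not deviate together (r = -0.10, 0.09 and -0.26 for numbers 1 to 3), so the numbers were not read as pairs. Low counts limit Il9r, and for the members the spread between libraries does.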
